A study of Sus scrofa with 19 samples.

Results

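The genes described here encode the enzymes that remove reactive oxygen species and peroxides and that make, use and recycle glutathione and thioredoxin, in the longissimus muscle of Duroc pigs. They are the genes whose symbol in the platform annotation starts with GPX, PRDX, SOD, TXN, GST, GCL or GLRX, or is *CAT*, *GSR*, *HMOX1* or *NQO1*, each read from its brightest probe set (by the mean of the arrays) among those annotated to exactly 1 symbol. The rule gave 43 of the 6765 genes with such a probe set, measured by 68 probe sets of 23999. It uses names and mean level only. The lists of roles by which the genes are ordered hold 65 symbols, and those outside the 43 were not analysed here.

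Muscle RNA of 19 pigs of 190 days of age, from a commercial Duroc line, was hybridised to the GeneChip Porcine Genome Array, 1 array per pig. The HIGH group held 10 pigs and the LOW group 9 pigs, taken from the fat and the lean end of a ranking on fattening and growth traits, so the groups differ in a whole set of traits and not in 1 treatment. By the study's methods the phenotyped population consisted of barrows (castrated males) of several half-sib families, and the labels give no family or batch for a pig. Each pig is named below by its group and the number in its label.

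Values are log2 signals, so a difference of 1 is a 2-fold change, and since probes differ in affinity the levels of different genes are not comparable; they were used only to choose the brightest probe set and to pick genes to describe. Background was taken on each array as the highest of 17 tag control probe sets, which carry no porcine gene and averaged 2.11. The arrays correlated with each other at 0.970 or more, and no array was a copy of another. All 10 skeletal muscle markers were detected above it in every pig. Of the 11 adipocyte markers 10 had a higher mean in HIGH than in LOW, among them all 7 that were detected in every pig, and leptin (*LEP*) was above background on no array.

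Superoxide dismutases turn superoxide into hydrogen peroxide, which catalase, the glutathione peroxidases and the peroxiredoxins then reduce. The last of these families draw their electrons from glutathione and thioredoxin, which glutathione reductase and the thioredoxin reductases recharge with NADPH. Skeletal muscle makes superoxide in its mitochondria and at its membranes during contraction, and several of these genes (*TXNRD1*, *GCLM*, *NQO1*, *HMOX1*) are classical targets of the transcription factor NRF2.

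By their brightest probe sets, 40 of the 43 genes, or 93.0%, were above background on all 19 arrays, beside 79.1% of all 6765 genes taken in the same way. The exceptions were *GSTA4*, above background on 15 arrays, *GPX6*, an olfactory glutathione peroxidase, on 1 array, and the glutathione transferase *GSTM3* on none. *GPX5*, the epididymal glutathione peroxidase, was above the highest tag control of its own array in every pig but only just, at 2.67 ± 0.06 (SD, n = 19). It lies next to *GPX6* in the Sscrofa11.1 annotation of RefSeq, with 0 protein-coding genes between them.

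**Figure D1:**
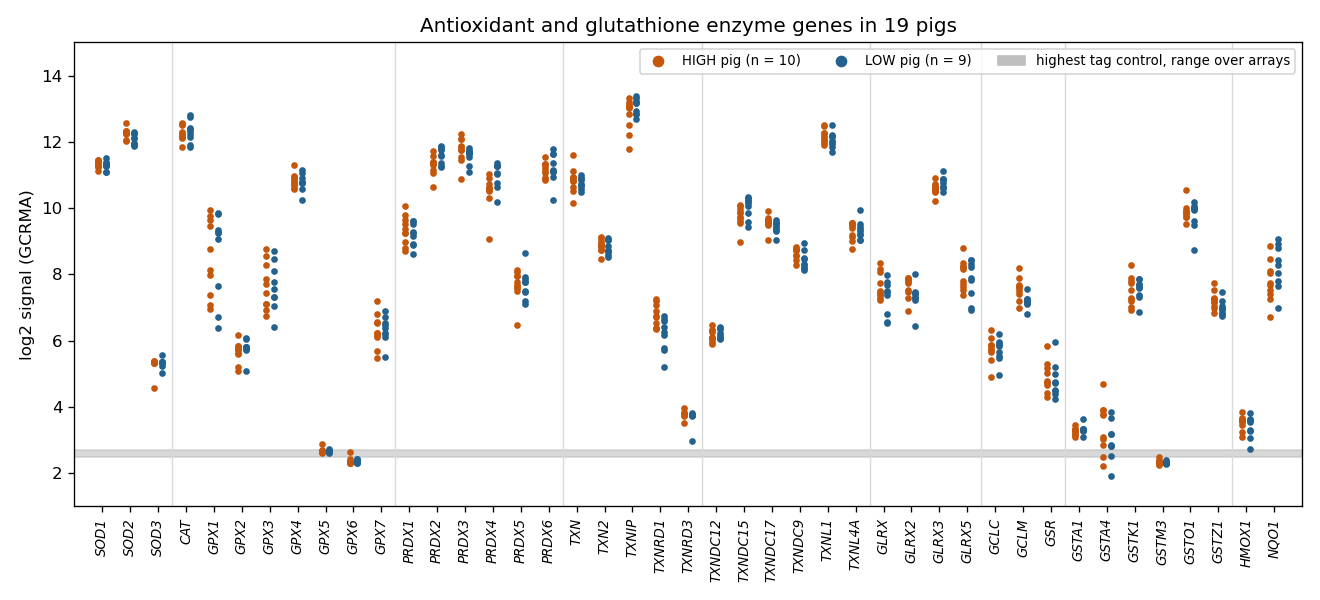
Log2 signal of the 43 genes in each of the 19 pigs, with genes on the horizontal axis in order of role, 10 HIGH pigs in orange and 9 LOW pigs in blue. The grey band is the range over arrays of the highest tag control; *GPX6* and *GSTM3* lie in or below it, *GPX5* does so on 17 of 19 arrays, and *GPX1* has the widest spread of all, from 6.39 to 9.96.

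Between the fattening groups, 0 of the 43 genes and 0% of all 23999 probe sets passed an adjusted p of 0.05 in limma, and the smallest adjusted p was 0.993 both for these genes and over all probe sets. At an unadjusted p under 0.05 there were 5 of the 43 genes, or 11.6%, beside 3.51% of all probe sets and 5.40% of the 5348 genes detected in every pig by their brightest probe set. The number was 10 without HIGH 1536 and 3 without LOW 2172. *TXNRD1*, *GCLM* and *SOD2* were the 3 with a higher mean in HIGH, and *PRDX2* and *PRDX4* the 2 with a lower mean. A higher mean with such a p was found for 1.87% of all probe sets and 3.403% of the genes detected in every pig. A lower mean with such a p was found for 1.64% and 2.001%. The genes share arrays and were not drawn at random, so these shares are a description. The mean was higher in HIGH for 26 genes and lower for 17, with a median difference of 0.03 against -0.01 over all probe sets (23 and 17 of the 40 detected genes, median 0.04), and the ranges of HIGH and LOW overlapped for all 43. Of all 23999 probe sets, 9923 had a higher and 14076 a lower mean in HIGH, which is the only base given here for the other counts of direction. It includes probe sets near background. For genes detected in every pig a base is given only for an unadjusted p under 0.05. Other counts of direction among detected genes therefore have no like base. Because the tissue was whole muscle, more cells of a type and more RNA per cell cannot be told apart in any of these values.

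**Figure D2:**
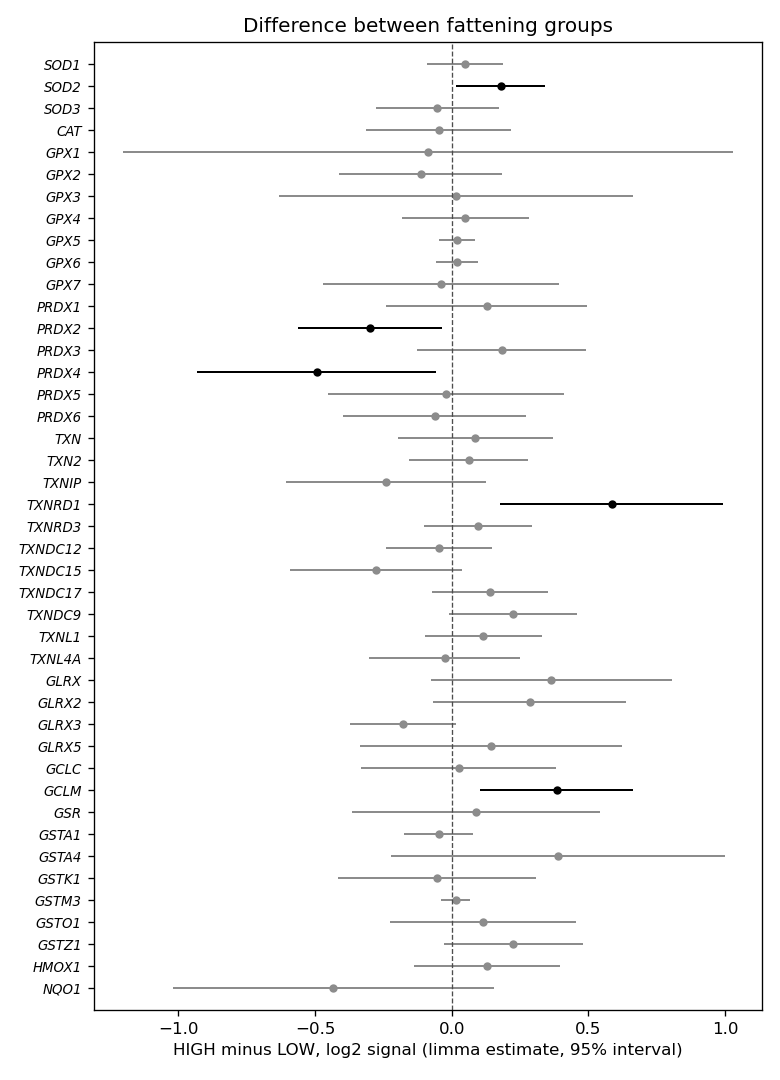
HIGH minus LOW difference in log2 signal of each of the 43 genes, estimated by limma with its 95% interval (bars), in order of role. Black marks the 5 genes with an unadjusted p under 0.05 (*SOD2*, *PRDX2*, *PRDX4*, *TXNRD1*, *GCLM*); none passed after adjustment.

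Of the 3 superoxide dismutases, the mitochondrial enzyme *SOD2* was measured at 12.02, 12.26 and 12.57 in HIGH and at 11.86, 12.12 and 12.30 in LOW (lowest, median and highest pig). Of the HIGH pigs 8 lay above the LOW mean, but the groups overlapped between 12.02 and 12.30. The difference was 0.18 (95% interval 0.02 to 0.34, unadjusted p = 0.030, limma), a 1.13-fold higher mean. The p rose above 0.05, to between 0.054 and 0.064, when any of HIGH 8697, LOW 1444, LOW 2157, LOW 2172 or LOW 8700 was left out. *SOD1*, the cytosolic copper and zinc enzyme, stood at 11.31 ± 0.12 over the 19 pigs, and its difference of 0.05 had an interval from -0.09 to 0.18. *SOD3*, the secreted form, stood at 5.30 ± 0.20, with a single HIGH pig (1619) at 4.58 below all others and a group difference of -0.05.

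Of the 8 genes of catalase and the glutathione peroxidases, 4 had a higher mean in HIGH (1 of them the undetected *GPX6*) and 4 a lower mean. The median difference was -0.01, and no gene had an unadjusted p under 0.05. Catalase (*CAT*), the peroxisomal enzyme, had 11.84, 12.24 and 12.57 in HIGH and 11.84, 12.31 and 12.80 in LOW, and its difference of -0.05 had an interval from -0.31 to 0.21. *GPX4*, which reduces lipid hydroperoxides within membranes, had 10.57, 10.79 and 11.30 in HIGH and 10.26, 10.79 and 11.14 in LOW. For both genes the LOW pigs spanned a slightly wider range than the HIGH pigs. *GPX2*, known from the gut epithelium, stood at 5.71 ± 0.30 and *GPX7*, of the endoplasmic reticulum, at 6.32 ± 0.45.

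*GPX1*, the abundant cytosolic glutathione peroxidase, differed more between pigs than any other of the 43 genes. It has only 1 probe set, so its spread rests on a single reading. Its log2 signal ran from 6.94 to 9.96 in HIGH (median 8.44) and from 6.39 to 9.86 in LOW (median 9.26), an 11.8-fold range over the 19 pigs. Its SD of 1.21 exceeded that of 99.6% of the 16202 probe sets detected in every pig, while the median SD was 0.32 over the 40 detected genes described here and 0.31 over those probe sets. High and low values occurred in both groups: HIGH 8697 (9.96), LOW 2157 (9.86) and LOW 2187 (9.81) were the highest pigs, and LOW 2172 (6.39), LOW 8700 (6.71) and HIGH 1468 (6.94) the lowest. The mean difference between groups was -0.09, with an interval from -1.20 to 1.02, which takes in a 2-fold change in either direction. *GPX3*, the secreted plasma enzyme, had the next largest SD, 0.69, with 6.74, 7.56 and 8.76 in HIGH and 6.41, 7.56 and 8.71 in LOW, and a difference of 0.01.

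Among the 6 peroxiredoxins, which reduce peroxides through a reactive cysteine, *PRDX2* and *PRDX4* had lower means in HIGH, and 2 of the other 4 had higher means. *PRDX4*, the form of the endoplasmic reticulum, had 9.06, 10.60 and 11.04 in HIGH and 10.19, 11.06 and 11.37 in LOW. No HIGH pig reached the LOW median, but 9 of 10 HIGH pigs lay within the LOW range, and HIGH 8697 lay far below every other pig. The difference was -0.49 (-0.93 to -0.06, unadjusted p = 0.027), and -0.34 without HIGH 8697, with a p of 0.052 without LOW 2172. *PRDX2*, a cytosolic form abundant in red blood cells, had 10.64, 11.36 and 11.72 in HIGH and 11.25, 11.60 and 11.88 in LOW. Here too HIGH 8697 was the lowest pig, and the difference of -0.30 (-0.56 to -0.04, unadjusted p = 0.026) was -0.23 without it, with a p of 0.052 without LOW 1550 and 0.053 without LOW 2157. Of the 4 red blood cell markers only the globin *HBB* was above background on all arrays, and its difference was 0.21 (unadjusted p = 0.265).

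The other peroxiredoxins had differences between -0.06 and 0.18. *PRDX3*, the mitochondrial form, had 10.89, 11.80 and 12.25 in HIGH and 11.10, 11.65 and 11.81 in LOW, with most of the HIGH pigs above the LOW mean and HIGH 1536 the lowest of all. *PRDX5*, found in several organelles, had 6.48, 7.73 and 8.14 in HIGH and 7.12, 7.77 and 8.65 in LOW. *PRDX6*, which uses glutathione, had 10.84, 11.17 and 11.53 in HIGH and 10.23, 11.15 and 11.77 in LOW, with LOW 1444 the lowest pig. *PRDX1* stood at 9.28 ± 0.39 over the 19 pigs.

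The widest group difference with an interval clear of 0 was that of *TXNRD1*, the cytosolic reductase that recharges thioredoxin. Its log2 signal was 6.36, 6.73 and 7.26 in HIGH and 5.21, 6.26 and 6.74 in LOW. All 10 HIGH pigs lay above the LOW mean and median, while the brightest LOW pigs reached into the middle of the HIGH range. The difference was 0.58 (SE 0.194, 95% interval 0.18 to 0.99, unadjusted p = 0.007), a 1.5-fold higher mean, and it stayed between 0.46 and 0.66 when any 1 pig was left out. Of the other genes in this role, *TXNIP*, the inhibitor of thioredoxin that glucose induces, had 11.77, 13.04 and 13.33 in HIGH and 12.68, 13.17 and 13.39 in LOW, a difference of -0.24 (-0.60 to 0.12). Thioredoxin itself was nearly level between groups: the difference was 0.09 for cytosolic *TXN* (10.80 ± 0.29 over the 19 pigs) and 0.06 for mitochondrial *TXN2* (8.84 ± 0.20). *TXNRD3*, the testis-enriched reductase, stood at 3.72 ± 0.20.

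The 6 thioredoxin-like and thioredoxin-domain genes divided evenly, 3 with a higher and 3 with a lower mean in HIGH. *TXNDC9*, a regulator of chaperonin folding, had 8.30, 8.73 and 8.83 in HIGH and 8.15, 8.32 and 8.94 in LOW, and 9 of 10 HIGH pigs lay above the LOW mean (difference 0.22, -0.01 to 0.45, unadjusted p = 0.056). *TXNDC15*, a transmembrane thioredoxin-domain protein, had 8.97, 9.80 and 10.11 in HIGH and 9.42, 10.15 and 10.33 in LOW. As with *PRDX4*, no HIGH pig reached the LOW median of *TXNDC15* and HIGH 8697 was the lowest pig (difference -0.28, -0.59 to 0.03, unadjusted p = 0.077, and -0.19 without that pig). *TXNL1*, a thioredoxin-like protein bound to the proteasome, had 11.89, 12.14 and 12.51 in HIGH and 11.69, 12.02 and 12.50 in LOW. *TXNDC17* had 9.04, 9.60 and 9.90 in HIGH and 9.05, 9.46 and 9.66 in LOW, and 9 of 10 HIGH pigs lay above the LOW mean. *TXNDC12*, of the endoplasmic reticulum, stood at 6.18 ± 0.16 and the spliceosome component *TXNL4A* at 9.32 ± 0.27.

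Of the 4 glutaredoxins, which use glutathione to reduce disulphides or to carry iron-sulphur clusters, 3 had a higher mean in HIGH and none had an unadjusted p under 0.05. *GLRX3*, a cytosolic iron-sulphur carrier, was the exception, with 10.22, 10.58 and 10.91 in HIGH and 10.49, 10.77 and 11.13 in LOW. Of the HIGH pigs 9 lay below its LOW mean, and the difference was -0.18 (-0.37 to 0.01, unadjusted p = 0.065). *GLRX2*, the mitochondrial glutaredoxin, had 6.90, 7.77 and 7.89 in HIGH and 6.43, 7.40 and 8.03 in LOW, a difference of 0.29 (-0.06 to 0.64). *GLRX*, the cytosolic glutaredoxin, differed by 0.36 (-0.07 to 0.80) and the mitochondrial *GLRX5* by 0.14 (-0.33 to 0.62).

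Glutathione is made in 2 steps, of which glutamate-cysteine ligase sets the rate, and the modifier subunit of that ligase, *GCLM*, was among the 5 genes named above. It had 6.99, 7.60 and 8.19 in HIGH and 6.81, 7.17 and 7.56 in LOW. Of the HIGH pigs 9 lay above the LOW median, and HIGH 1536 was the lowest of its group. The difference was 0.38 (0.11 to 0.66, unadjusted p = 0.009), a 1.30-fold higher mean. The catalytic subunit *GCLC* had almost equal means, 5.74 ± 0.38 in HIGH and 5.72 ± 0.36 in LOW, with a difference of 0.03 (-0.33 to 0.38). Glutathione reductase, *GSR*, stood at 4.90 ± 0.45 and 4.81 ± 0.53.

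Of the 6 glutathione S-transferases, 4 had a higher mean in HIGH and none had an unadjusted p under 0.05. Of the 4 that were detected in every pig, 2 had a higher and 2 a lower mean. *GSTZ1*, the maleylacetoacetate isomerase of tyrosine breakdown, had 6.83, 7.21 and 7.75 in HIGH and 6.74, 6.97 and 7.47 in LOW, and 9 of 10 HIGH pigs lay above the LOW median (difference 0.23, -0.03 to 0.48, unadjusted p = 0.077). *GSTO1*, the omega-class transferase, had 9.53, 9.87 and 10.55 in HIGH and 8.74, 9.98 and 10.18 in LOW, its lowest value being that of LOW 1444. *GSTK1*, a mitochondrial and peroxisomal form, had 6.92, 7.41 and 8.29 in HIGH and 6.88, 7.63 and 7.87 in LOW. The alpha-class genes lay near background, *GSTA1* at 3.30 ± 0.12 and *GSTA4*, which conjugates hydroxynonenal from oxidised lipid, at 3.19 ± 0.69.

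*NQO1*, the quinone reductase, had 6.72, 7.71 and 8.85 in HIGH and 7.0, 8.28 and 9.06 in LOW, with 8 of 10 HIGH pigs below the LOW mean. Its difference of -0.43 (-1.02 to 0.15, unadjusted p = 0.137) pointed the other way from those of *TXNRD1* and *GCLM*. *NQO1* also varied widely within groups, with an SD of 0.66 over the 19 pigs and its lowest values in HIGH 8697 and LOW 1444. Haem oxygenase 1, *HMOX1*, which breaks haem down to biliverdin, iron and carbon monoxide, lay near background at 3.46 ± 0.28 and differed by 0.13 (-0.14 to 0.39).

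**Figure D3:**
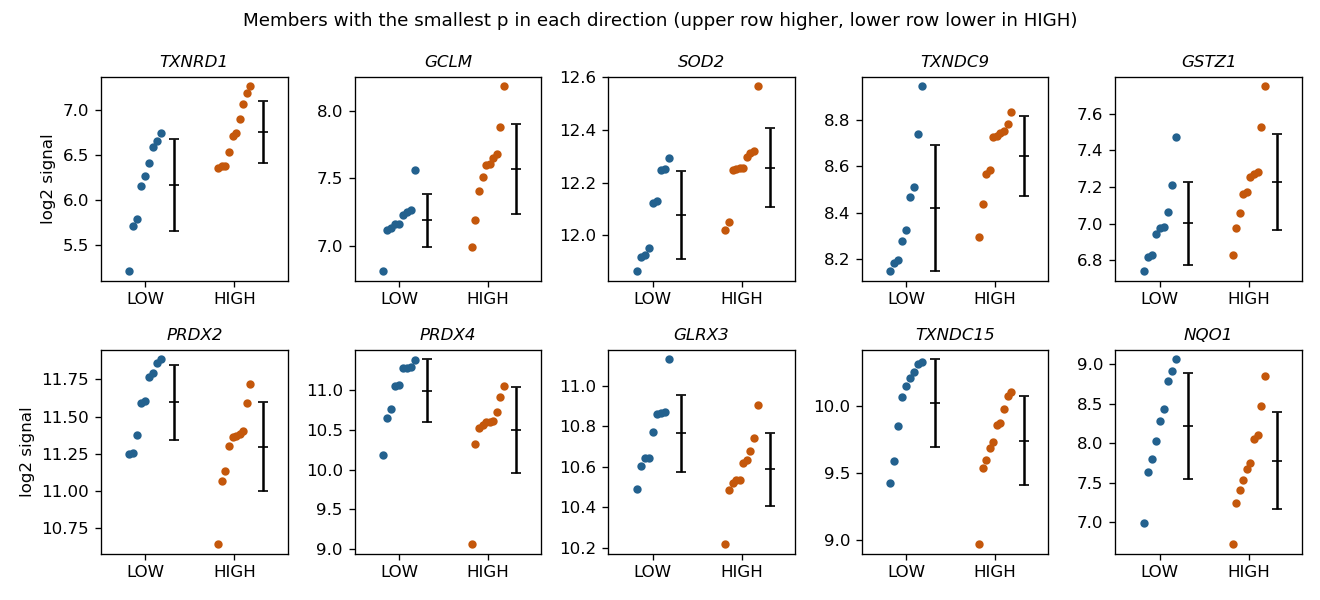
Log2 signal per pig of the 5 genes with the smallest p among those with a higher mean in HIGH (upper row) and the 5 among those with a lower mean (lower row), pigs sorted by value within a group, with the group mean and SD as bars (n = 9 LOW, n = 10 HIGH); the vertical axes do not start at 0. The groups overlap in every panel, and HIGH 8697 is the lowest pig of *PRDX2*, *PRDX4*, *TXNDC15* and *NQO1*.

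To see which of these genes vary together, correlations over the 19 pigs were computed for all 780 pairs of the 40 genes above background on every array. By Pearson's r, 10 pairs had a permutation p under 0.05 after adjustment over the 780, 6 of them positive and 4 negative. By Spearman's rho 4 pairs did, and 2 pairs did by both. As a whole the genes did not move as a block: the median r was 0.07 against 0.01 for pairs of all 5348 genes above background, and 3.33% of the pairs had an absolute r over 0.6 against 3.89% of all gene pairs.

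The pairs gathered on *PRDX4*, *TXNDC15*, *PRDX2* and *TXNL1*, each with 3 of the 10. *PRDX4* and *TXNDC15* had the strongest relation, with r = 0.89 (permutation p = 1e-05, the smallest that 100000 resamples can give, adjusted p = 0.0039) and rho = 0.77 (p = 0.00017, adjusted p = 0.044). It was 0.87 within HIGH and 0.89 within LOW, and 0.84 without the 2 pigs farthest from the median of *PRDX4* (HIGH 8697 and LOW 2172). *PRDX2* followed *PRDX4* with r = 0.83 (p = 4e-05, adjusted p = 0.010) and rho = 0.79 (p = 0.00011, adjusted p = 0.043), with 0.80 within HIGH, 0.75 within LOW and 0.71 without the 2 farthest pigs. *PRDX2* and *TXNDC15* had r = 0.78 (p = 0.00011, adjusted p = 0.020) and rho = 0.73 (p = 0.00045, adjusted p = 0.050), and r = 0.60 without the 2 farthest pigs. Within groups it was 0.66 in HIGH (permutation p = 0.053) and 0.84 in LOW (exact permutation p = 0.0062). Over the 19 pigs, a high signal of 1 of these 3 genes thus went with a high signal of the others, while 0 of the 780 pairs passed after adjustment within HIGH alone.

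*TXNL1* ran opposite to these 3 genes. Its r was -0.76 with *TXNDC15* (permutation p = 0.00021, adjusted p = 0.027, rho = -0.74, p = 0.00041, adjusted p = 0.050), with -0.56 within HIGH and -0.92 within LOW, and -0.63 without the 2 farthest pigs. It was -0.75 with *PRDX2* (permutation p = 0.00029, adjusted p = 0.032, rho = -0.69, p = 0.0016, adjusted p = 0.103), -0.76 within HIGH and -0.74 within LOW, and -0.70 without the 2 farthest pigs. It was -0.70 with *PRDX4* (permutation p = 0.00051, adjusted p = 0.044, rho = -0.62, p = 0.0054, adjusted p = 0.174), -0.58 within HIGH and -0.83 within LOW, and -0.71 without the 2 farthest pigs. These relations lean on HIGH 8697, which had the lowest *PRDX4*, *PRDX2* and *TXNDC15* and the highest *TXNL1*: without it 2 of the 780 pairs passed, *PRDX4* with *TXNDC15* kept r = 0.82, and the other 5 pairs among these 4 genes had absolute r from 0.63 to 0.71.

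**Figure D4:**
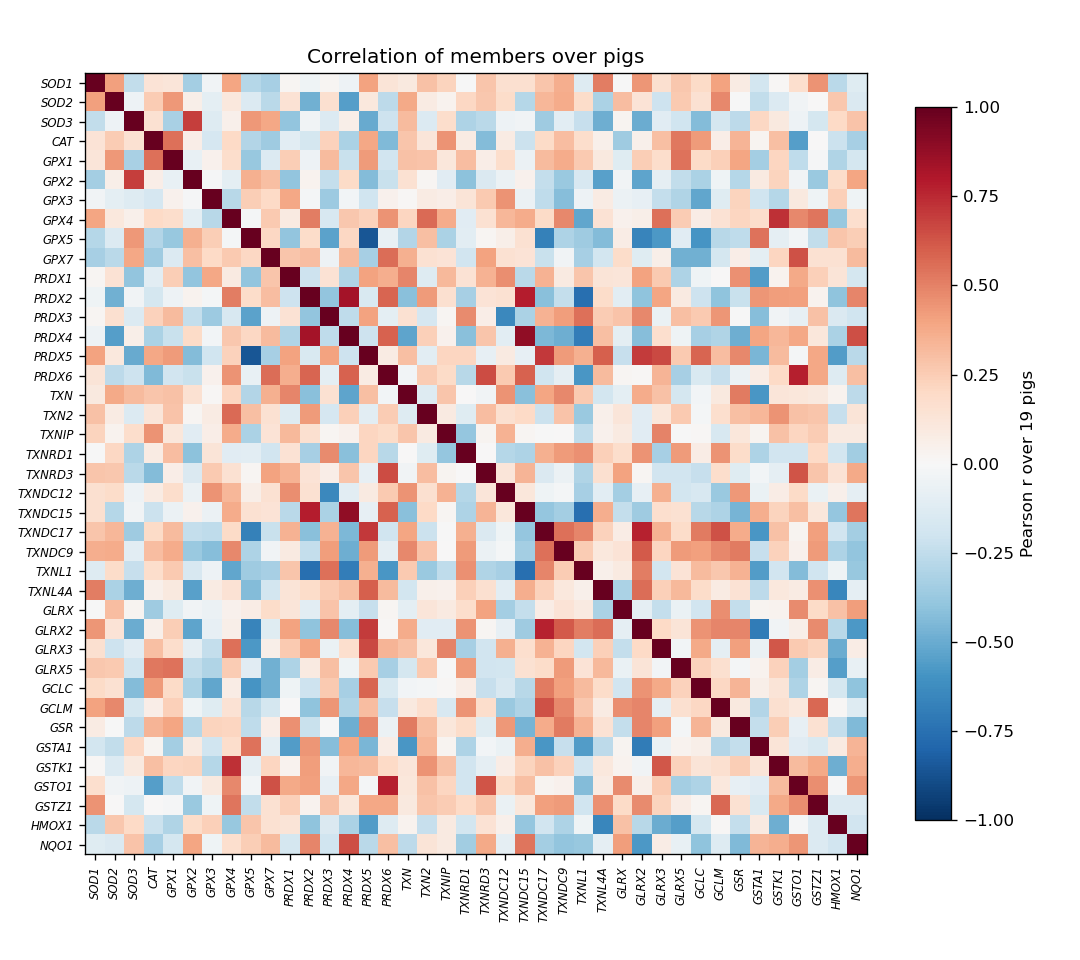
Pearson correlation over the 19 pigs between the 40 genes above background on all arrays, in order of role on both axes, from -1 (blue) to 1 (red). The strongest cells are *PRDX4* with *TXNDC15* (0.89), *GPX5* with *PRDX5* (-0.86) and *PRDX2* with *PRDX4* (0.83).

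The other pairs each joined a different couple of genes. *GPX5* and *PRDX5* had r = -0.86 (permutation p = 1e-05, adjusted p = 0.0039, rho = -0.70, p = 0.0012, adjusted p = 0.103), -0.97 within HIGH, -0.78 within LOW and -0.78 without the 2 farthest pigs, but -0.57 with each array centred on its median and -0.49 after quantile normalization. *GPX5* lay just above background and itself followed the median signal of the array (r = 0.78, permutation p = 0.00016, adjusted p = 0.022 over 280 relations, rho = 0.57), a relation that fell to 0.42 without the 2 farthest arrays and rests on them. *GPX5* also followed its other probe set (r = 0.76, permutation p = 0.00028, adjusted p = 0.0014, rho = 0.81), which was above background on no array. *GSTO1* and *PRDX6* had r = 0.78 (permutation p = 0.00056, adjusted p = 0.044, rho = 0.64, p = 0.0040, adjusted p = 0.161), 0.54 within HIGH, 0.90 within LOW, 0.57 without LOW 1444 and 0.54 without the 2 farthest pigs. *GLRX2* and *TXNDC17* had r = 0.77 (permutation p = 0.00013, adjusted p = 0.020, rho = 0.53, p = 0.020, adjusted p = 0.258), 0.69 within HIGH, 0.81 within LOW and 0.48 without the 2 farthest pigs, HIGH 1536 and LOW 1918. *GPX4* and *GSTK1* had r = 0.73 (permutation p = 0.00035, adjusted p = 0.034, rho = 0.60, p = 0.0075, adjusted p = 0.174), 0.74 within HIGH, 0.81 within LOW and 0.50 without the 2 farthest pigs. Of these relations only that of *GPX5* and *PRDX5* kept an adjusted p under 0.05 whichever 1 pig was left out. It did not keep it under other normalizations: its adjusted permutation p was 0.246 with arrays centred on their median and 0.448 after quantile normalization. *PRDX5* and *TXNDC17*, with r = 0.71 and a permutation p of 0.00092, missed the threshold (adjusted p = 0.065, rho = 0.64, p = 0.0043, adjusted p = 0.161).

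Because *PRDX4*, *PRDX2* and *TXNDC15* also had lower means in HIGH, their relation to markers of the fibre make-up of the samples was examined. *PRDX4* correlated with the mean of the 5 fast fibre markers (*MYLPF*, *TNNT3*, *TNNI2*, *TNNC2*, *ATP2A1*), with r = 0.86 (permutation p = 1e-05, the smallest possible, adjusted p = 0.0028 over the 280 relations of 40 genes to 7 measures) and rho = 0.82 (p = 3e-05). It was 0.82 after subtracting group means, 0.79 without the 2 farthest pigs and 0.74 without HIGH 8697 and LOW 1444. *PRDX2* had r = 0.67 with the same mean (permutation p = 0.0021, adjusted p = 0.064, rho = 0.55), and 0.43 without the 2 farthest pigs. *TXNDC15* had r = 0.68 (permutation p = 0.0017, adjusted p = 0.064, rho = 0.67), and 0.69 without the 2 farthest pigs. Without HIGH 8697 and LOW 1444, r with the fast fibre mean fell to 0.41 for *PRDX2* and 0.41 for *TXNDC15*. After subtracting group means it was 0.57 and 0.60. With the slow fibre mean, *PRDX2* had r = 0.63 (permutation p = 0.0038, adjusted p = 0.072, rho = 0.54), and 0.48 without the 2 farthest pigs. That of *PRDX4* was 0.42 (permutation p = 0.071, adjusted p = 0.399, rho = 0.31) and that of *TXNDC15* 0.36 (permutation p = 0.126, adjusted p = 0.479, rho = 0.26). Over all pigs, r was thus positive for the 2 peroxiredoxins and *TXNDC15* with the means of both fibre types. Without HIGH 8697 and LOW 1444, r with the slow fibre mean was 0.002 for *PRDX4*, -0.03 for *TXNDC15* and 0.48 for *PRDX2*. The slow fibre values of *PRDX4* and *TXNDC15* therefore rest on those pigs. Only the relation of *PRDX4* to the fast fibre mean passed after adjustment. Of the 9 slow fibre markers 8 had a lower mean in HIGH, none with an unadjusted p under 0.05. Fibre markers were not the only correlates, though none of the following passed after adjustment. With the 3′ minus 5′ control signal, r was -0.45 for *PRDX2* and -0.41 for *PRDX4* (permutation p = 0.058 and 0.087, rho = -0.58 and -0.48). With the fibroblast marker mean, r was 0.49 for *PRDX4* and 0.55 for *TXNDC15* (permutation p = 0.050 and 0.019), and -0.11 and 0.10 without the 2 farthest pigs. After subtracting group means it was 0.74 and 0.75. With the adipocyte marker mean, r was 0.29 for *PRDX4* and 0.39 for *TXNDC15* (permutation p = 0.22 and 0.10). It was 0.65 and 0.70 after subtracting group means, and -0.07 and 0.11 without HIGH 8697 and LOW 1444.

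The fast fibre mean ran from -0.30 to 0.08 in HIGH and from -0.07 to 0.16 in LOW as a deviation from the mean of all pigs, lowest in HIGH 8697. Its group difference lay mostly in *ATP2A1*, the fast calcium pump, with a difference of -0.48 (unadjusted p = 0.004) and an SD of 0.42 over the pigs. The other 4 markers differed by between -0.04 and 0.02 (unadjusted p from 0.504 to 0.763) and had SDs from 0.04 to 0.14. Their mean log2 signals were high, from 14.88 to 15.54, and how far such signals follow the fibre content of a sample was not tested. All 5 were above background on every array. With *ATP2A1* alone *PRDX4* had r = 0.69 (permutation p = 0.0043, adjusted p = 0.013 over 6 relations, rho = 0.78), and 0.77 without the 2 farthest pigs. With the mean of the other 4 it had r = 0.72 (permutation p = 0.0027, adjusted p = 0.013, rho = 0.31), which fell to 0.23 without HIGH 8697 and LOW 1444 and so rests on those pigs. *PRDX2* and *TXNDC15* had r = 0.56 and 0.52 with *ATP2A1* alone (permutation p = 0.014 and 0.025, adjusted p = 0.021 and 0.026, rho = 0.54 and 0.68), and 0.48 and 0.76 without the 2 farthest pigs. After subtracting group means, r with *ATP2A1* alone was 0.57 for *PRDX4*, 0.38 for *PRDX2* and 0.38 for *TXNDC15*. Within HIGH it was 0.51, 0.31 and 0.24, and within LOW 0.87, 0.71 and 0.87, in that order. The 6 relations were picked after the data were seen. With the mean of the other 4 their r was 0.52 and 0.61 (permutation p = 0.026 and 0.0072, adjusted p = 0.026 and 0.014, rho = 0.21 and 0.35), and 0.03 and 0.10 without HIGH 8697 and LOW 1444. The part of fibre make-up in the *PRDX4*, *PRDX2* and *TXNDC15* differences was not tested.

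**Figure D5:**
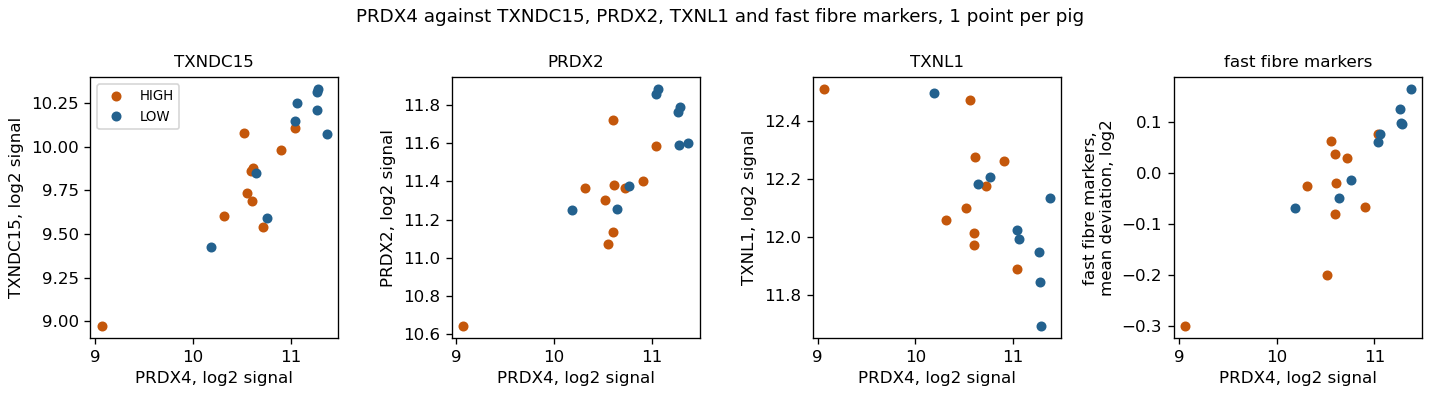
Log2 signal of *PRDX4* in each pig (horizontal axes) against that of *TXNDC15*, *PRDX2* and *TXNL1* and against the mean log2 deviation of 5 fast fibre markers (vertical axes), HIGH pigs in orange and LOW pigs in blue. The r values are 0.89, 0.83, -0.70 and 0.86; the pig at the far left, with *PRDX4* at 9.06, is HIGH 8697.

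*TXNRD1*, *GCLM* and *SOD2* showed no relation with an adjusted p under 0.05 to any of the 7 measures (3′ minus 5′ control signal, array median, and slow fibre, fast fibre, adipocyte, macrophage and fibroblast marker means). With the adipocyte mean their r was 0.21, 0.23 and 0.24 (permutation p = 0.379, 0.342 and 0.316, adjusted p = 0.718, 0.691 and 0.688, rho = 0.24, 0.32 and 0.14), and after subtracting group means it was -0.07, -0.05 and 0.01. With the fast fibre mean, *SOD2* had r = -0.54 (permutation p = 0.017, adjusted p = 0.185, rho = -0.43), with -0.40 after subtracting group means and -0.28 without the 2 farthest pigs. *TXNRD1* had r = -0.50 (permutation p = 0.032, adjusted p = 0.262, rho = -0.54), with -0.31 and -0.45. *GCLM* had r = -0.21 (permutation p = 0.390, adjusted p = 0.718, rho = -0.36). The part of fibre make-up in their differences was not tested. The adipocyte mean ran from -0.46 to 1.14 in HIGH (median 0.15) and from -1.45 to 0.66 in LOW (median -0.35). Of the adipocyte markers 3 had an unadjusted p under 0.05, *FABP4* with a difference of 0.58, *ADIPOQ* with 1.39 and *DGAT2* with 1.32. The fibroblast marker mean was lowest in HIGH 8697 and LOW 1444, and 7 of its 8 genes had a higher mean in HIGH. Of the 10 macrophage markers 9 had a lower mean in HIGH, 6 of them among the 7 detected in every pig, none with an unadjusted p under 0.05.

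A gene measured by more than 1 probe set gives a second reading that the choice of the brightest did not use. Such readings existed for 16 of the 43 genes, 25 probe sets in all, and 13 of these (11 genes) were above background on all arrays. Their median r with the brightest was 0.56, and 7 of the 13 had an adjusted permutation p under 0.05. For *TXNRD1*, 1 of the other probe sets followed the brightest (r = 0.77, permutation p = 0.00015, adjusted p = 0.00094, rho = 0.83, 0.68 after subtracting group means) and differed between groups by 0.37 (unadjusted p = 0.028). The remaining *TXNRD1* probe set, at a mean of 4.60, did not follow it (r = -0.14, permutation p = 0.555, adjusted p = 0.770, rho = -0.21, -0.38 after subtracting group means). It differed by 0.26 (unadjusted p = 0.247). All 3 readings of *TXNRD1* thus had a higher mean in HIGH, but only 1 of the others followed the brightest over pigs. That probe set shares its name stem on the array with the brightest.

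*TXNDC15* was measured again with r = 0.83 (permutation p = 6e-05, adjusted p = 0.0005, rho = 0.73, 0.81 after subtracting group means) and a difference of -0.23 (unadjusted p = 0.204), and *TXNL1* with r = 0.72 and 0.63 (adjusted p = 0.002 and 0.015 by permutation). The second probe set of *GLRX* correlated with the brightest at r = 0.82 (permutation p = 1e-05, adjusted p = 0.00013, rho = 0.80) and differed between groups by 0.58 (unadjusted p = 0.030), against 0.36 for the brightest. The second probe set of *PRDX4*, at a mean of 3.5 against 10.73, did not follow it (r = -0.05, permutation p = 0.827, adjusted p = 0.862, rho = -0.04) and differed by 0.04. The other probe set of *GCLM* was above background on no array, and *SOD2*, *PRDX2* and *GPX1* have only 1, so their values rest on a single reading.

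The wider pathway was read from 5 further lists, in which no gene passed after adjustment in limma. *NFE2L2* and *KEAP1*, the genes of NRF2 and its inhibitor, were not analysed here. Of their partners *SQSTM1*, the autophagy adaptor that binds KEAP1, differed by 0.12 (unadjusted p = 0.428) and *PPARGC1A*, the coactivator of mitochondrial biogenesis, by 0.68 (unadjusted p = 0.228). Of 11 genes that supply NADPH, 8 had a higher and 3 a lower mean in HIGH, and 1 in each direction had an unadjusted p under 0.05. These were *IDH1*, the cytosolic isocitrate dehydrogenase, with 4.28 ± 0.55 in HIGH and 3.63 ± 0.51 in LOW (difference 0.65, p = 0.011), and the mitochondrial malic enzyme *ME3*, with 5.39 ± 0.25 and 5.68 ± 0.25 (difference -0.29, p = 0.028).

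Among 16 other enzymes of glutathione and protein thiols, 11 had a higher mean in HIGH. The microsomal transferase *MGST1* had 5.54 ± 0.79 in HIGH and 4.65 ± 1.0 in LOW, a difference of 0.89 (unadjusted p = 0.033), and glutathione synthetase, *GSS*, which completes glutathione, differed by -0.20 (unadjusted p = 0.189). Of 13 genes of selenoproteins and selenocysteine insertion, 8 had a higher mean in HIGH, and these were 8 of the 9 detected in every pig. The unadjusted p was under 0.05 for *SELENOS* of the endoplasmic reticulum (9.09 ± 0.28 against 8.72 ± 0.30, difference 0.38, p = 0.011) and the nuclear *SELENOH* (9.03 ± 0.32 against 8.69 ± 0.40, difference 0.35, p = 0.046). Of 11 genes of iron, haem and metal binding, 4 had a higher and 7 a lower mean (4 and 6 of the 10 detected in every pig), none with an unadjusted p under 0.05. The smallest p in that list belonged to biliverdin reductase, *BLVRA* (difference -0.17, unadjusted p = 0.231), and ferritin light chain, *FTL* (difference -0.16, unadjusted p = 0.336).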

How the data were processed

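RNA of 19 longissimus samples (10 HIGH, 9 LOW, by the labels) was measured on 1 array each. The authors deposited log2 signals per probe set, for which the submitters' notes name GCRMA with no version, while the paper describes RMA for its own comparison. GCRMA models background from probe sequence before normalizing, so low signals are compressed towards a floor. Another deposited table repeats the log2 values of 4268 probe sets. No sample column was left unused (0).

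Of 24114 probe sets, 115 controls were left out and 23999 tested with no filter. The HIGH and LOW pigs were compared by limma-trend (limma 3.58.1, R 4.3.3), the method the paper names, and p-values were adjusted by Benjamini-Hochberg over all 23999. Correlations were tested by two-sided permutation (100000 resamples; exact within LOW) in Python 3.11.15 with numpy 2.4.6. Both procedures were tested on simulated data. All 43 genes were matched by Entrez identifier to RefSeq's Sscrofa11.1 annotation, which was used for names and neighbours only. A probe set carrying the same symbol more than once was left out. The number of arrays limits the precision.

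Given in full were genes above background on all arrays that had the 5 smallest p in each direction, the 5 largest SDs, a place in the 10 strongest pairs or the highest mean of their role. *PRDX4* with *TXNL1*, and probe sets other than the brightest, were singled out after their values were seen. Members and lists were chosen with earlier results of these data known. Chosen after seeing the data were the relations to array properties and marker means, leaving out HIGH 8697 with LOW 1444, splitting the fast fibre mean, Spearman's count of pairs and the limit to brighter genes in pairs.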

Additional observations from a re-analysis of the deposited data

Results flagged for a closer look

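A single pig lay far from the others of its group, by the gap to the nearest pig relative to the group's range, in 17 of 100 combinations of a measure and a group. Chance gives about 1 in 20, or 5 of 100, but the combinations share arrays and some genes lay near background. The 17 can therefore not be tested against the 5. Of the 17, 13 were among the 86 combinations of a gene and a group. No explanation was tested.

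HIGH 8697 was low for *PRDX4* (9.06, the other 9 HIGH pigs at 10.65 ± 0.21, SD), *TXNDC15* (8.97 against 9.83 ± 0.20) and the fibroblast marker mean (-0.66 against 0.19 ± 0.14). LOW 1444 was low for *GSTO1* (8.74, the other 8 LOW pigs at 9.91 ± 0.23), *TXNRD3* (2.98 against 3.76 ± 0.02) and the fibroblast mean (-1.24 against 0.02 ± 0.28), and had the highest 3′ minus 5′ control signal (1.61 against 1.0 ± 0.15). HIGH 1536 was low for *PRDX5* (6.48 against 7.81 ± 0.23) and *TXNDC17* (9.04 against 9.63 ± 0.12) and high for *GPX5* (2.89 against 2.66 ± 0.02), on the array with the highest median (3.59 against 3.47 ± 0.03). HIGH 1533 was high for *GSTO1* (10.55 against 9.82 ± 0.14) and for *GPX6* (2.64 against 2.35 ± 0.04), where it was the only pig above background.

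The remaining values each concerned 1 gene. *SOD3* was at 4.58 in HIGH 1619 against 5.35 ± 0.03, *GPX2* at 5.09 in LOW 2157 against 5.86 ± 0.13, *GSTA1* at 3.63 in LOW 1918 against 3.29 ± 0.08 and *TXNRD3* at 3.51 in HIGH 1468 against 3.80 ± 0.07.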

How the results depend on the processing

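In every setting tried 0 of the 43 genes passed an adjusted p of 0.05 in limma, the smallest being 0.124 with array weights, where 5 of all probe sets passed. Array weights, which gave HIGH 1536 and LOW 1918 the least weight (0.14 and 0.21), raised the genes with an unadjusted p under 0.05 from 5 to 10. Leaving out 1 pig moved that number between 3 (without LOW 2172) and 10 (without HIGH 1536), and in the second table, with 12 of the genes, it was 2. The median difference was between 0.02 and 0.07 without 1 pig and 0.13 in the second table. The highest unadjusted p without 1 pig was 0.016 for *TXNRD1*, 0.021 for *GCLM*, 0.064 for *SOD2*, 0.053 for *PRDX2* and 0.052 for *PRDX4*, with directions kept. Over the 10 genes with the smallest p by direction, the unadjusted p crossed 0.05 in 31 of 273 fits, 20 of them without 1 pig. The number of pairs passing fell from 10 to 4 with Spearman's rho, 6 with the 3′ minus 5′ signal removed, 1 without both HIGH 8697 and LOW 1444, 0 within HIGH and 3 within LOW, where there are fewer pigs. Without 1 pig it was between 2 (without HIGH 8697) and 11, and it was 6 without LOW 1594. Why these counts moved was not tested. No direction reversed for those 10 genes, the 10 pairs or the median difference, but 17 of the 43 genes, with differences of up to 0.11 in size, changed sign in at least 1 fit. By adjusted p of 0.05, 468 values of the genes and pairs kept their side and 65, all of pairs, did not. No paired analysis was possible because the groups share no replicate numbers.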
